A study of Mus musculus with 5 samples.

Results

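Dapl1, Lcn4, Actn2, Tdrp and Igfbp4 are 5 of the 27998 genes counted in this single-cell series, and were followed across cell classes as a proposed signature of naive CD8 T cells. They were chosen by their CPM in naive CD8 T cells, against naive CD4, activated CD8 and other cells, in earlier results of these same cells, so their levels in naive CD8 T cells are given as a description, with no test. Live CD45+ immune cells came from 3 mice, each sampled at the tumour, a tumour-draining lymph node (dLN) and a non-draining lymph node (non-dLN). Mouse 1 had received nivolumab_mIgG1_D265A, mouse 2 nivolumab_mIgG1 (nivolumab is an antibody that blocks PD-1, here with a mouse IgG1 Fc part, with or without the D265A exchange) and mouse 3 the isotype control MOPC21. The sources used here do not give strain, age or tumour model. The 9 samples were marked with hashtag antibodies and run as 1 pool. Neither the labels nor the table ties a hashtag to a mouse or site, so the samples are called populations 1 to 9 by hashtag number, and no comparison of sites or antibodies was made.

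The pool held 21347 cells after filtering, of which 21094 carried a hashtag call (2051 to 2550 cells a population) and 253 did not. Depth, counted as unique molecular identifiers (UMIs, single captured RNA molecules), came to 9082690 to 31322375 gene UMIs a population, with medians of 3374 to 10662 UMIs per cell. No barcode was listed more than once. Cell classes were gated on marker genes, none of them among the 5. A naive T cell needed UMIs of CD3 genes, of either Cd8a and Cd8b1 or Cd4, and of at least 2 of 5 genes of naive T cells (Ccr7, Lef1, Tcf7 and S1pr1 among them), with none of 7 activation genes (Pdcd1, Lag3, Havcr2, Gzmb, Gzmk, Ifng, Cxcr6) and none of Foxp3 and Tnfrsf4. Levels are UMIs summed over a class scaled to a common total of gene UMIs (CPM, counts per 1e6), with 95% intervals, exact Poisson for levels and conditional binomial for ratios. The intervals cover counting error only. With 1 pool there is no replicate of a class and no p-value is given, and each population is shown instead.

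Naive CD8 T cells circulate between blood and lymph node until they meet antigen. The chemokine receptor Ccr7 brings them into the node, S1pr1 lets them leave it, and the transcription factors Tcf7, Lef1 and Klf2 keep them at rest. On activation they lose these genes and make granzymes, interferon gamma and inhibitory receptors such as PD-1. None of the 5 genes is among those by which the class is usually defined. Dapl1 encodes a small relative of the death-associated protein Dap, and Lcn4 a secreted lipocalin, a carrier of small lipophilic molecules described in the mouse vomeronasal organ. Actn2 encodes alpha-actinin-2, which crosslinks actin at the Z-discs of muscle, and Tdrp a nuclear protein described in the testis. Igfbp4 encodes a secreted protein that binds insulin-like growth factors.

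The 5 genes are protein-coding and overlap no other gene in GENCODE vM21 (build GRCm38). Dapl1 (ENSMUSG00000026989) lies on the plus strand at chr2:59484653-59505020 and Lcn4 (ENSMUSG00000026919) on the minus strand at chr2:26667674-26671282. Actn2 (ENSMUSG00000052374) lies on the minus strand at chr13:12269426-12340760, Tdrp (ENSMUSG00000050052) on the minus strand at chr8:13952008-13975032, and Igfbp4 (ENSMUSG00000017493) on the plus strand at chr11:99041244-99054392. RefSeq promoter sequence was matched for 4 of the 5, all but Tdrp. The 250 bases before each RefSeq start are shown because the genes were named together for naive CD8 T cells, and because factors of resting T cells have known binding motifs. In GRCm38.p6 these windows are chr2:59484403-59484652 (plus strand) for Dapl1, chr2:26671283-26671532 (minus) for Lcn4, chr13:12340733-12340982 (minus) for Actn2 and chr11:99040994-99041243 (plus) for Igfbp4. Capitals mark exact matches, on either strand, to the motifs CTTTGA (TCF/LEF), CCGGAA (ETS), TGTGGT (RUNX), CACCC (KLF) and GTAAACA (FOXO):
Dapl1: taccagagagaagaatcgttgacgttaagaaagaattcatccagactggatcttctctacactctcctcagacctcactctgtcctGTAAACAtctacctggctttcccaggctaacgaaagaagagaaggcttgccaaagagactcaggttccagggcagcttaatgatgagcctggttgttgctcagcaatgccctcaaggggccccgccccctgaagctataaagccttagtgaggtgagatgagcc
Lcn4: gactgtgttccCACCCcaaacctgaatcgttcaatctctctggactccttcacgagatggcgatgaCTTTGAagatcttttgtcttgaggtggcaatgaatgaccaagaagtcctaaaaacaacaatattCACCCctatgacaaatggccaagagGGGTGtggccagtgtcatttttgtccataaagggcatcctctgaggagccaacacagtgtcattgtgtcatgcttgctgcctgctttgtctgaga
Actn2: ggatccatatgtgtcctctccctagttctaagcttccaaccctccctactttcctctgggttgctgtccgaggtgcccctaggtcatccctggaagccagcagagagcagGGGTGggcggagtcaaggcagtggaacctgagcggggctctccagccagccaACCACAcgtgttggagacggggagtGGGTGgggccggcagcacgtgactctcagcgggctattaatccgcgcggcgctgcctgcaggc
Igfbp4: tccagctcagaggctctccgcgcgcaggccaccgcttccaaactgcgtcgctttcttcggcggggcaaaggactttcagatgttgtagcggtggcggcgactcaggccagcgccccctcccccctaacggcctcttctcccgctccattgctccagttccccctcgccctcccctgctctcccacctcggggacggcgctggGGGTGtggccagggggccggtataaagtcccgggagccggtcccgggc
The Dapl1 window held the FOXO letters, 164 to 158 bases before the start, as do 3.17% of the 32851 windows of this length in the table. The Lcn4 window held the TCF/LEF letters 184 to 179 bases before the start, found in 13.8% of all windows, and the Actn2 window the RUNX letters (14.0% of all windows). KLF letters stood in the Lcn4, Actn2 and Igfbp4 windows, and in 52.0% of all. The ETS letters stood in none of the 4 and in 12.0% of all. No matches overlapped another motif. Such matches describe letters, not binding.

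Of 2909 CD8 T cells with at least 2 naive genes, 84.5% held a UMI of Nkg7, a gene of cytotoxic granules, against 10.5% of 1827 CD4 T cells chosen in the same way and 6.64% of B cells. The first gate, which refused Nkg7, Il2rb and Ctla4 beside Ccl5, Cxcr3 and Eomes, kept only 168 naive CD8 T cells, of low depth (median 3495 UMIs). A second gate was set after this was seen. It refused Ccl5, Cxcr3 and Eomes but not those 3 genes, and kept 1374 naive CD8 T cells (median 4572 UMIs) and 893 naive CD4 T cells (median 4208 UMIs). Values below are from this second gate, and ratios under the first, stricter one are given beside those of naive CD8 T cells to the other T cell classes. The second gate's memory-like class, 278 CD8 T cells with at least 2 of Cxcr3, Eomes, Cd44 and Ccl5 and at most 1 activation gene, also differs from the first. The activated CD4 class held 372 cells under the second gate and 481 under the first. Naive CD8 T cells had 473 CPM of Cd8a and 1140 CPM of Cd8b1, 1165 CPM of Ccr7 and 608 CPM of Lef1. Their Cd79a, the B cell marker, stood at 8.36 CPM, against 3707 CPM in B cells, and C1qa, the macrophage marker, at 35.0 CPM, against 5013 CPM in macrophages. Gated cells are a part of the whole, since 36.9% of cells fell in no gate, and these together with cells in several gates held 43.2% (Lcn4) to 55.0% (Igfbp4) of the 5 genes' UMIs.

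The 5 genes did not mark the same cells. Lcn4 was a gene of CD8 T cells in every state and close to absent from CD4 T cells. Actn2 was highest in naive CD8 T cells and lower in every other T cell class. Under the stricter gate, however, its ratio of naive over memory-like CD8 T cells was 1.18 (0.835 to 1.62). Dapl1 and Tdrp were counted in naive T cells of both lineages, somewhat higher in CD8, and in memory-like CD8 T cells near the naive CD4 level. For Dapl1 the excess over naive CD4 T cells was not seen under the stricter gate. Its ratio of naive over memory-like CD8 T cells was 0.684 there (0.577 to 0.805). Igfbp4 was higher in naive CD4 than in naive CD8 T cells. The data thus go against the label for Igfbp4. Against all other gated cells together, all 5 were at least 2-fold higher in naive CD8 T cells, as were 6.82% of 12796 genes (6.1% under a stricter gate described above), with ratios between 4.96 for Igfbp4 and 21.6 for Actn2. Those values, and the contrasts with naive CD4 and activated CD8 T cells below, are of the kind that chose the genes, and support nothing.

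**Figure D1:**
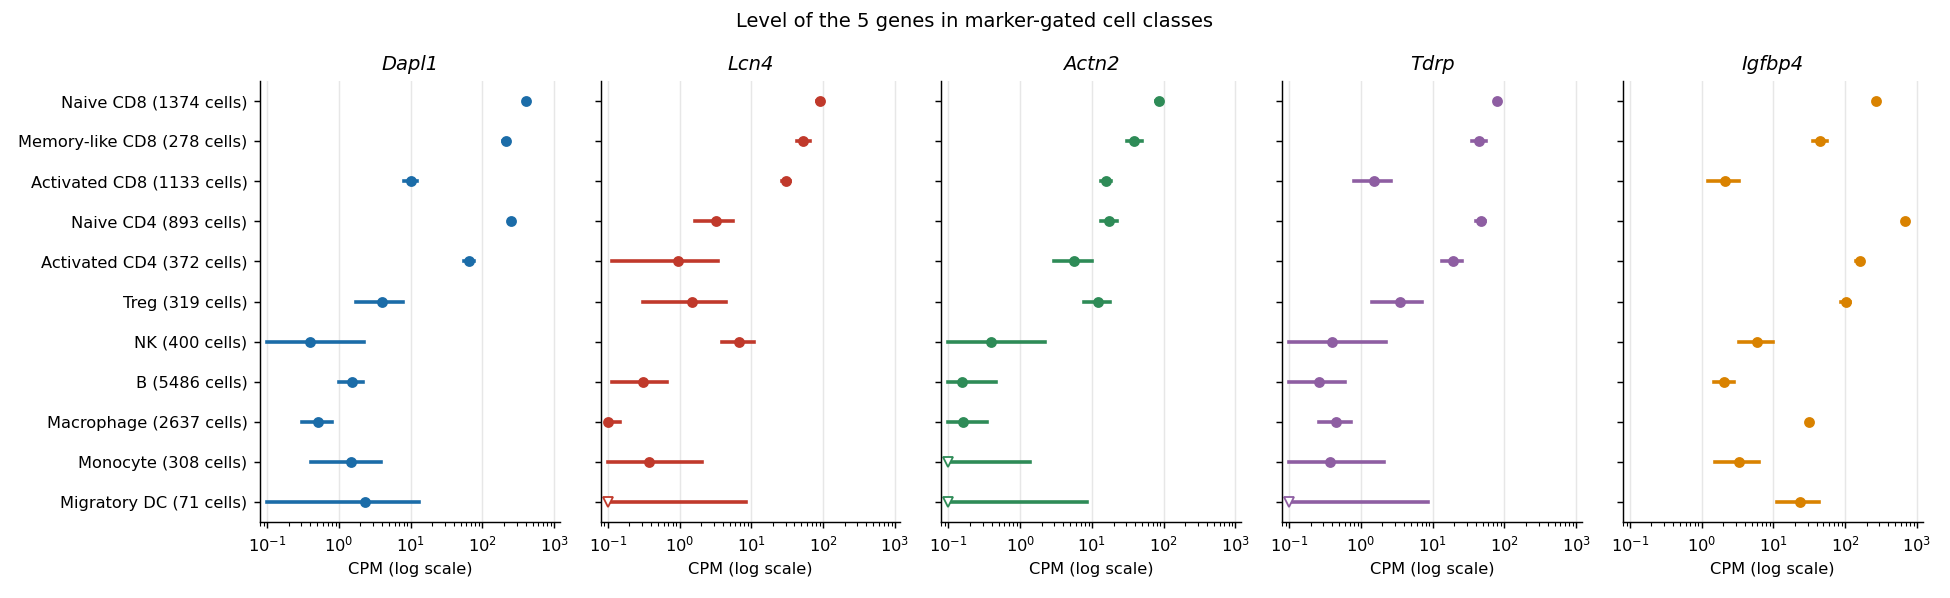
Level of each gene in the 11 cell classes with at least 50 cells, in CPM on a log axis. Points are summed levels, lines 95% Poisson intervals (counting error only) and open triangles classes without a UMI; values below the axis are drawn at its low end. Lcn4 stands at 90.0, 53.2 and 30.2 CPM in naive, memory-like and activated CD8 T cells and at 3.18 CPM in naive CD4 T cells, and Igfbp4 is highest in naive CD4 T cells, at 676 CPM.

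Dapl1 reached 404 CPM in naive CD8 T cells (389 to 420). Naive CD4 T cells followed with 250 CPM (234 to 266) and memory-like CD8 T cells with 215 CPM (194 to 237), whose intervals overlap. Activated CD4 T cells had 65.1 CPM, activated CD8 T cells 10.0 CPM and regulatory T (Treg) cells 4.01 CPM, while B cells, macrophages and natural killer (NK) cells had 0.397 to 1.51 CPM. With each cell thinned to 1500 UMIs, 32.0% of naive CD8 T cells held a Dapl1 UMI (29.5 to 34.6%, exact Clopper-Pearson; 49.1% unthinned) and 20.4% of naive CD4 T cells did (17.8 to 23.2%; 37.5% unthinned). B cells, which should lack the gene, gave 0.249% (0.132 to 0.425%; 0.510% unthinned, median depth 3028 UMIs). Thinning left out 15 naive CD8 T cells, 9 naive CD4 T cells and 258 B cells that were shallower.

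Tdrp was likewise highest in the naive classes and memory-like CD8 T cells, with 79.8 CPM in naive CD8 T cells (73.0 to 87.0), 46.8 CPM in naive CD4 T cells (40.2 to 54.3) and 44.6 CPM in memory-like CD8 T cells (35.4 to 55.3). The naive CD4 and memory-like CD8 levels do not differ beyond their intervals. Activated CD4 T cells had 19.0 CPM, Treg cells 3.51 CPM and activated CD8 T cells 1.52 CPM. Across the 11 classes with at least 50 cells, the Dapl1 and Tdrp profiles, as log2(CPM + 5), had a Pearson r of 0.990, and each was the gene most like the other among 12796. These classes share 1 library pool and differ in depth. Lypd6b, a gene of the Ly6 family, was second for both (r 0.979 with Dapl1 and 0.985 with Tdrp), at 19.7 CPM in naive CD8 T cells and 24.1 CPM in naive CD4 T cells.

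Lcn4 held to the CD8 lineage. It had 90.0 CPM in naive CD8 T cells (82.8 to 97.7), 53.2 CPM in memory-like CD8 T cells (43.2 to 64.9) and 30.2 CPM in activated CD8 T cells (26.6 to 34.1), 3 levels whose intervals do not overlap. NK cells followed with 6.75 CPM from 17 UMIs (3.93 to 10.8), and naive CD4 T cells with 3.18 CPM from 12 UMIs (1.64 to 5.55), intervals that overlap. After thinning, 11.7% of naive CD8 T cells (28.2% unthinned) and 0.566% of naive CD4 T cells (1.34% unthinned) held a UMI, against 0.0383% of B cells. The gene most like it was Snai3, a zinc finger factor (r 0.940), and the next was Cd8b1 itself (r 0.937). Dapl1, by contrast, had an r of 0.653 with Lcn4, and Igfbp4 an r of 0.170. None of the 9 other lipocalin genes looked up (Lcn2 to Lcn12) held a UMI in either naive class.

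Actn2 had 84.8 CPM in naive CD8 T cells (77.8 to 92.3) and 39.1 CPM in memory-like CD8 T cells (30.6 to 49.3). Naive CD4 T cells (17.5 CPM), activated CD8 T cells (15.7 CPM) and Treg cells (12.0 CPM) came next, each interval overlapping that of the next lower class. NK cells, macrophages and B cells had at most 0.397 CPM. Its relatives behaved otherwise between the naive classes: Actn1, a widely expressed non-muscle alpha-actinin, had 188 CPM in naive CD8 and 196 CPM in naive CD4 T cells (ratio 0.960, 0.875 to 1.05), and Actn4, the other non-muscle form, 81.2 and 79.6 CPM (ratio 1.02, 0.883 to 1.18). Actn3, the form of fast muscle fibres, had no UMI in either. Of 8 muscle genes looked up, Acta1 held 2 UMIs and Tnni2 1 UMI in all naive CD8 T cells, and Des, Myl1, Tnnt3, Ckm, Ttn and Myh4 held none. The same naive CD8 T cells held 538 Actn2 UMIs.

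Igfbp4 stood at 271 CPM in naive CD8 T cells (259 to 285) and 676 CPM in naive CD4 T cells (650 to 703). It had 161 CPM in activated CD4 T cells (144 to 179) and 102 CPM in Treg cells (88.6 to 117), and was also counted in macrophages (31.2 CPM, 29.4 to 33.0). The 204 UMIs of Treg cells lay in 41 of 319 cells, and 1 cell held 32 of them. Migratory dendritic cells had 23.2 CPM, but from 10 UMIs in 1 cell. Memory-like CD8 T cells had 45.1 CPM and activated CD8 T cells 2.10 CPM, a level that does not differ from B cells (2.08 CPM) beyond the intervals. After thinning, 26.1% of naive CD8 (47.5% unthinned) and 46.4% of naive CD4 T cells (68.2% unthinned) held a UMI, against 0.363% of B cells. Of the other binding proteins, only Igfbp7 was seen in naive CD8 T cells, with 3 UMIs. Of 11 genes of the growth factor axis, 4 had enough UMIs to compare the naive classes. Igf1r, the receptor, had 12.8 CPM in naive CD8 T cells, and its ratio to naive CD4 T cells was 0.985 (0.683 to 1.43). Igf2r, Insr and the adaptor Irs2 also stayed under 2-fold in either direction, and Igf1, Igf2 and the Igfbp4 protease Pappa held no UMI in either class.

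Naive CD8 and naive CD4 T cells were then set side by side over all genes. A gene was counted as higher where its ratio was at least 2 and its interval left out 1, among 8829 genes with at least 50 UMIs in both classes together. By this rule 1.97% of genes were higher in naive CD8 T cells and 1.79% lower. Of the 5 genes, Lcn4 and Actn2 were higher, Igfbp4 was lower, and Dapl1 and Tdrp stayed under 2-fold. The Lcn4 ratio was 28.4 (16.1 to 55.2), the Actn2 ratio 4.86 (3.76 to 6.37), the Tdrp ratio 1.70 (1.43 to 2.03), the Dapl1 ratio 1.62 (1.50 to 1.75) and the Igfbp4 ratio 0.402 (0.378 to 0.427). With the stricter gate they came to 20.3, 3.49, 1.64, 0.989 (0.827 to 1.18) and 0.214, so the CD8 excess of Dapl1 was not seen among those 168 cells. Lcn4 and Actn2 were again the 2 of the 5 called higher, against 1.61% of 6764 genes, and Igfbp4 the 1 called lower, against 2.19%. With 2612 naive CD8 T-like and 3021 naive CD4 T-like cells taken from Leiden clusters formed without the 5 genes in place of gates, the Dapl1 ratio was 1.92.

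**Figure D2:**
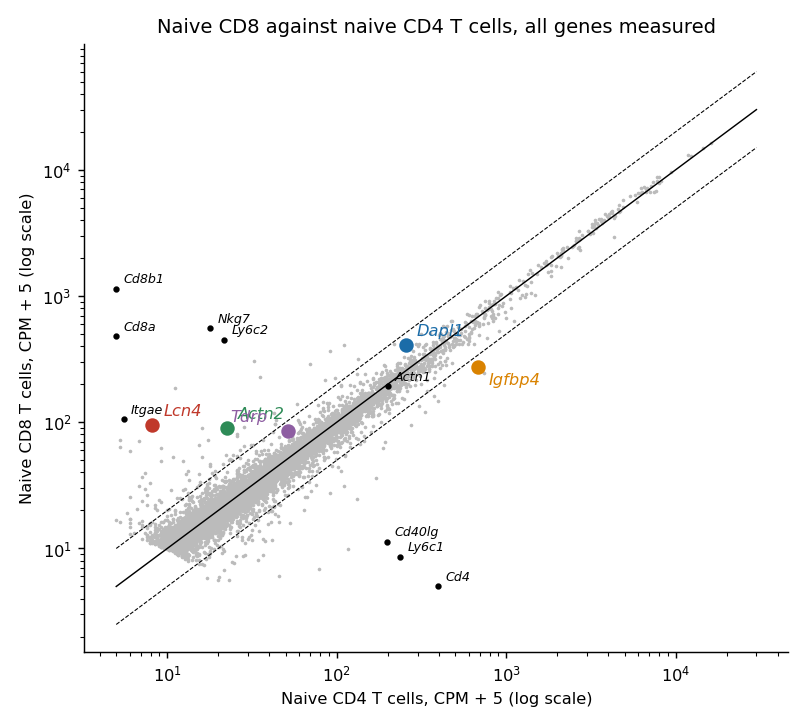
Level of each of 8829 genes in naive CD8 T cells (vertical) and naive CD4 T cells (horizontal), as CPM + 5 on log axes. The solid line marks equal levels, the dashed lines 2-fold differences on the CPM + 5 scale, and coloured points the 5 genes. Lcn4 and Actn2 lie above the lines, Igfbp4 lies below, and Dapl1 and Tdrp lie between the dashed lines.

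Lcn4 was the 11th most different gene on the CD8 side, ordered by the lower bound of the ratio, and Actn2 the 38th. Ahead of Lcn4 stood Cd8b1 and Cd8a, which set the gate, and then Itgae (the alpha chain of integrin CD103, ratio 189), the predicted genes Gm43698 and Gm44174, Nkg7 (42.7), Ly6c2 (26.8), Adgrg5 (51.7), Plac8 (30.2) and Bend4 (36.0). Itgae stood at 100 CPM in naive CD8 T cells from 636 UMIs, against 2 UMIs in naive CD4 T cells. On the CD4 side, behind the gating gene Cd4, stood Ly6c1 (ratio of naive CD8 over naive CD4 0.0156), the CD40 ligand gene Cd40lg (0.0327), St8sia6 (0.0255), Zbtb7b, which encodes the CD4 lineage factor ThPOK (0.0271), Pdlim4 (0.0436), Gm13546, Adh1, Ccr8 and Arhgap29. Igfbp4 was 49th on that side.

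Of 8 genes listed for the CD8 lineage, 7 were higher in naive CD8 T cells (median log2 ratio 2.91, against -0.04 over all genes). They included Ccr9, a receptor of gut homing (57.9 CPM in naive CD8 and 4.23 CPM in naive CD4 T cells), and Klrd1 (224 and 30.4 CPM), which encodes CD94. Runx3, the CD8 lineage factor, stayed under 2-fold at 81.2 and 44.2 CPM. Of 6 genes listed for the CD4 lineage, Zbtb7b, Cd40lg and Cd5 were lower in naive CD8 T cells and 3 were neither (median -1.08). Of 12 genes of naive state and quiescence, none was higher or lower by 2-fold (median -0.34): Klf2, which drives S1pr1, had 1309 and 1254 CPM and Il7r, the interleukin-7 receptor, 377 and 433 CPM. A count of 0 in 12 lies near the background, since 1.97% of all genes were higher and 1.79% lower.

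Under the second gate, the 6 populations with at least 20 cells of both naive classes (2, 3, 5, 6, 8 and 9) gave the same direction for each gene. In that order, Dapl1 stood at 444, 419, 391.9, 423, 399 and 355 CPM in naive CD8 T cells, and at 261, 276, 259, 220, 295 and 224 CPM in naive CD4 T cells. Every population's naive CD8 level thus lay above every naive CD4 level, with ratios of 1.35 to 1.92. Actn2 stood at 85.1, 94.7, 94.1, 91.9, 81.8 and 65.9 CPM in naive CD8 T cells, and at 13.9, 14.2, 17.6, 11.1, 28.1 and 23.4 CPM in naive CD4 T cells. These groups do not overlap either, and population 6 had the widest ratio at 8.30. Under the stricter gate, populations 2, 3, 6, 8 and 9 held at least 20 cells of both classes. Their Dapl1 ratios were 0.993, 1.26, 0.961, 1.20 and 0.727, each with an interval that includes 1. From 2 naive CD8 UMIs each, Actn2 was 0.913 in population 8 and Tdrp 0.793 in population 2. Elsewhere both were above 1, with intervals that include 1 for Actn2 in population 2 and for Tdrp in populations 6, 8 and 9. Igfbp4 was lower in naive CD8 T cells of each, with intervals below 1. Lcn4 was higher in each, but its intervals include 1 in populations 8 and 9, from 2 naive CD8 UMIs each.

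Lcn4 had 123, 116, 80.0, 58.5, 80.4 and 79.9 CPM in naive CD8 T cells of populations 2, 3, 5, 6, 8 and 9, the highest level 2.10 times the lowest. Its naive CD4 levels were 5.97, 0, 0, 6.16, 0 and 4.68 CPM, from 0 to 5 UMIs each. With a count of 0 taken as 3 UMIs, the ratio came to 30.1, 10.6 and 11.4 in populations 3, 5 and 8. The lower bounds of the exact intervals there were 24.2, 8.33 and 9.01. The other populations gave 20.5, 9.50 and 17.1. Tdrp had 77.2, 83.5, 69.0, 66.8, 91.3 and 92.3 CPM in naive CD8 T cells and 37.8, 56.7, 45.2, 46.8, 44.5 and 44.5 CPM in naive CD4 T cells. Those levels do not overlap, but the ratios of populations 5 (1.53) and 6 (1.43) had intervals that include 1. Igfbp4 had 253, 269, 209, 294, 290 and 288 CPM in naive CD8 T cells and 526, 709, 683, 801, 553 and 675 CPM in naive CD4 T cells. Each naive CD8 level of Igfbp4 lay below each naive CD4 level, with ratios of 0.305 to 0.525.

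**Figure D3:**
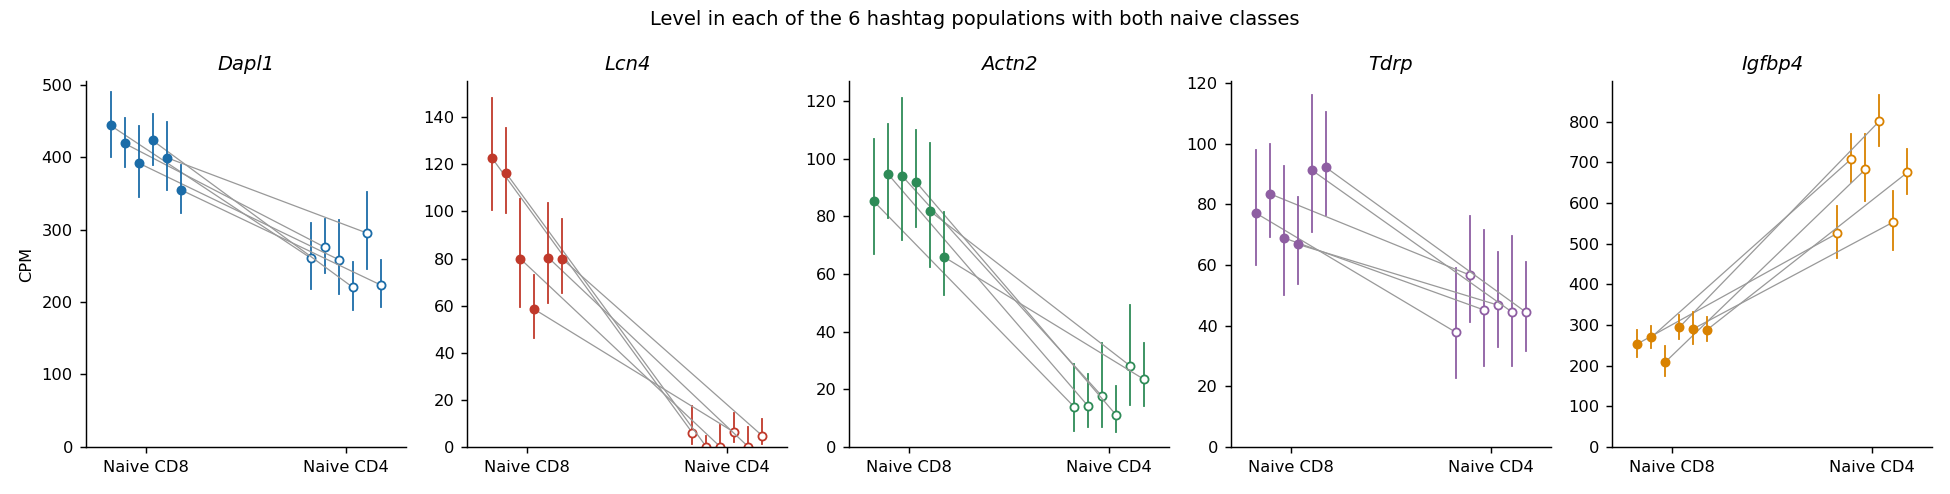
Level in naive CD8 (filled) and naive CD4 T cells (open) of the second gate, in populations 2, 3, 5, 6, 8 and 9. Levels are CPM, with 95% Poisson intervals and lines joining the classes of a population. The point levels of the classes do not overlap in any of the 5 genes, though some Tdrp intervals do, and Igfbp4 alone is lower in naive CD8 T cells in all 6.

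Depth moved with some of these levels. Over 4 equal groups of naive CD8 T cells by depth, with medians of 2974, 4162, 4992 and 6169 UMIs, Dapl1 stood at 223, 341, 462 and 481 CPM and Igfbp4 at 175, 230, 286 and 330 CPM. Lcn4 stood at 62.1, 88.0, 96.4 and 98.8 CPM, Actn2 at 82.5, 83.8, 77.7 and 92.0 CPM, and Tdrp at 92.6, 92.9, 80.6 and 64.9 CPM. Dapl1 and Igfbp4 were thus higher in deeper cells even per UMI, and Tdrp was lowest in the deepest. Within 4 equal depth groups set over both naive classes, the Dapl1 ratio of naive CD8 over naive CD4 was 1.12 (0.896 to 1.40), 1.73, 1.68 and 1.45 from the shallowest to the deepest. The Tdrp ratio was 2.08, 2.05, 1.95 and 1.23 (0.898 to 1.71 in the deepest), the Actn2 ratio 4.99, 5.46, 4.09 and 4.92, and the Igfbp4 ratio 0.381, 0.469, 0.354 and 0.350. Lcn4 gave ratios of 14.9, 29.9, 17.4 and 106 from 3, 3, 5 and 1 naive CD4 UMIs, the last with an interval of 18.9 to 4222. What depth stands for here, cell size or capture, was not tested.

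Naive CD8 T cells also differed among themselves. The 549 cells with a UMI of Ly6c2, a surface gene that memory and effector CD8 T cells carry at high levels, had 541 CPM of Dapl1, against 297 CPM in the 825 cells without one (ratio 1.82, 1.68 to 1.97). In populations 2, 3, 5, 6, 8 and 9 this ratio was 2.19, 1.61, 1.67, 2.05, 1.80 and 1.80, each with an interval above 1. Lcn4 had 112 CPM in cells with and 72.4 CPM in cells without Ly6c2 (ratio 1.55, 1.31 to 1.84), with intervals above 1 in populations 5 and 9 alone. Igfbp4 gave 1.19 (1.08 to 1.31), while Actn2 (0.887, 0.744 to 1.06) and Tdrp (0.859, 0.716 to 1.03) had intervals that include 1. By population, the Actn2 interval lay below 1 in population 2 alone (0.491, 0.291 to 0.810). Cells with Ly6c2 were deeper (median 5028 UMIs, against 4299). Within the depth groups the Dapl1 ratio was 2.94, 1.73, 1.79 and 1.45, each interval above 1. The Igfbp4 ratio was 0.672, 1.52, 1.12 and 0.958, with an interval above 1 in the second depth group only (1.21 to 1.92). Actn2 had an interval below 1 in the shallowest depth group only (0.263, 0.0694 to 0.706). In naive CD4 T cells the 61 cells with a Ly6c2 UMI had 271 CPM of Dapl1 and the other 832 had 248 CPM (ratio 1.09, 0.844 to 1.39).

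**Figure D4:**
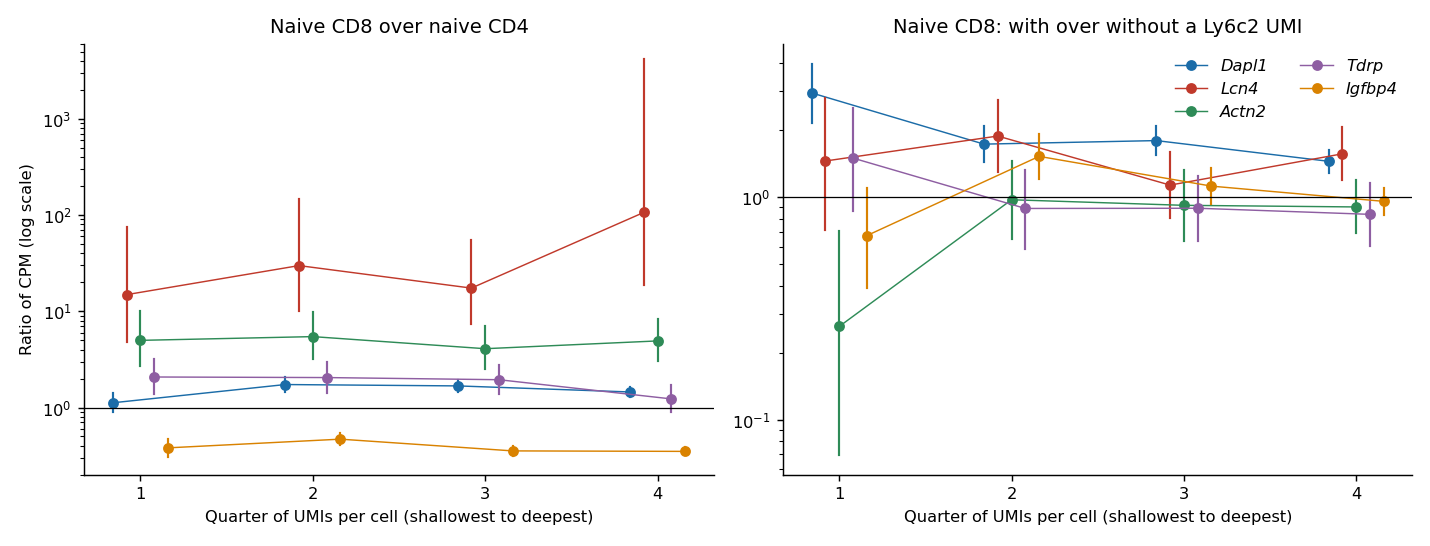
Ratios of CPM (log scale) within 4 equal groups of cells by UMIs per cell, shallowest to deepest, for naive CD8 over naive CD4 T cells (left) and for naive CD8 T cells with over those without a Ly6c2 UMI (right), with 95% intervals. Actn2 and Lcn4 stay above 1 and Igfbp4 below it on the left in every depth group, and Dapl1 stays above 1 in every one on the right, between 1.45 and 2.94.

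Cells with an Nkg7 UMI (1111 cells, median 4736 UMIs), set against the 263 without (median 3696 UMIs) in a division added after the gate was widened, had 428 and 276 CPM of Dapl1 (ratio 1.55, 1.37 to 1.77). Igfbp4 had 292 and 160 CPM (ratio 1.82, 1.55 to 2.16), the Lcn4 ratio was 1.32 and that of Actn2 had an interval of 1.01 to 1.70, while the Tdrp interval included 1 (0.893, 0.709 to 1.14). The part of depth in these ratios was not tested.

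Cells were also divided by interferon response and immediate early genes. Cells with at least 2 UMIs of interferon response genes (1062 cells), against cells with none (110), gave ratios from 0.878 for Actn2 to 1.32 for Lcn4, all with intervals that include 1. Cells with a UMI of the immediate early genes Fos, Jun, Egr1 or Nr4a1 (1224 cells), against those with none (150), had 85.7 and 131 CPM of Lcn4 (ratio 0.653, 0.513 to 0.840), and intervals that include 1 for the other 4 genes. Of the 4 populations with at least 20 cells on both sides (2, 3, 6 and 9), the Lcn4 interval left out 1 in population 6 alone (0.451, 0.253 to 0.853), and the Dapl1 ratio was 2.29 in population 9, with an interval above 1. After thinning, 36.4% of naive CD8 T cells held none of the 5 genes, 40.0% held 1 and 18.9% held 2, and no cell held all 5. Observed over expected co-detection, taken as the product of the single shares, ran from 0.809 for Lcn4 with Tdrp to 1.42 for Actn2 with Igfbp4 (59 cells, against 41.5).

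Activated CD8 T cells, 1133 cells with at least 3 of the 7 activation genes, stood far below naive CD8 T cells in Dapl1, Tdrp and Igfbp4 and less far below them in Actn2 and Lcn4. The ratios of naive over activated CD8 T cells were 129 for Igfbp4 (81.6 to 219), 52.6 for Tdrp (30.5 to 99.5) and 40.3 for Dapl1 (32.5 to 50.6), but 5.39 for Actn2 (4.45 to 6.56) and 2.98 for Lcn4 (2.57 to 3.47). With the stricter gate they were 74.0, 51.8, 25.8, 4.46 and 2.21. All 5 were at least 2-fold higher in naive cells by either gate, as were 9.34% of 9766 genes (8.35% under the stricter gate), while 16.3% of genes were lower and none of the 5. This is a contrast close to the one by which the genes were named. Activated CD8 T cells came from populations 1 (602 cells), 4 (341) and 7 (152), which held 3 of the 1374 naive CD8 T cells between them, so that state and population cannot be told apart. The strict Lcn4 ratio fell under 2 without population 2 (1.69) and without population 7 (1.99). Populations 1, 4 and 7 held 17, 3 and 1 of the 86 Dapl1 UMIs, whereas the 5, 5 and 8 activated cells of populations 3, 5 and 8 held 29, 18 and 14, so few cells outside the main populations set that ratio, and it was 59.9 without population 3. Leaving out population 1 gave 24.9 for Dapl1, 4.76 for Lcn4 and 8.19 for Actn2. Without the limit on myeloid UMIs in T cells the Igfbp4 ratio fell to 49.0. Igfbp4 stood at 21.0, 16.4 and 43.7 CPM in macrophages of the same populations 1, 4 and 7. What lowered the ratio was not tested.

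Lcn4 and Actn2 differed between these populations more than the ratio shows. In activated CD8 T cells of populations 1, 4 and 7, Lcn4 stood at 41.3, 22.8 and 13.8 CPM and Actn2 at 21.0, 10.8 and 7.58 CPM. Both were highest in population 1 and lowest in population 7. Dapl1 stood at 3.92, 1.20 and 0.689 CPM in the same cells, and Tdrp at 0.923, 0.400 and 0.689 CPM.

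The residual Dapl1 lay in few cells: 26 held a UMI, and 1 of them held 23 UMIs. The 92 activated CD8 T cells that still held at least 2 naive genes carried 72 of the 86 Dapl1 UMIs, at 95.4 CPM (74.7 to 120), against 2.51 CPM in the 277 cells with 1 naive gene and 1.47 CPM in the 764 with none. Tdrp (10.6, 0.419 and 0.736 CPM) and Igfbp4 (13.3, 0.837 and 1.10 CPM) were also highest in the 92 cells. These rest on 8, 1 and 4 UMIs of Tdrp and 10, 2 and 6 UMIs of Igfbp4. Lcn4 stood at 39.8, 21.8 and 32.6 CPM, and Actn2 at 19.9, 13.8 and 16.0 CPM, with no such concentration. Populations 1, 4 and 7 held 17, 3 and 1 of the 86 Dapl1 UMIs, so most of the 72 came from outside them. They held 4, 1 and 1 of the 13 Tdrp UMIs and 6, 2 and 0 of the 18 Igfbp4 UMIs. The division by naive genes was not made within populations. Outside populations 1, 4 and 7, few activated CD8 T cells were found (1 to 8 a population). The 5 of population 3 had 746 CPM of Dapl1, a level set mostly by 1 cell, the one with 23 UMIs.

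**Figure D5:**
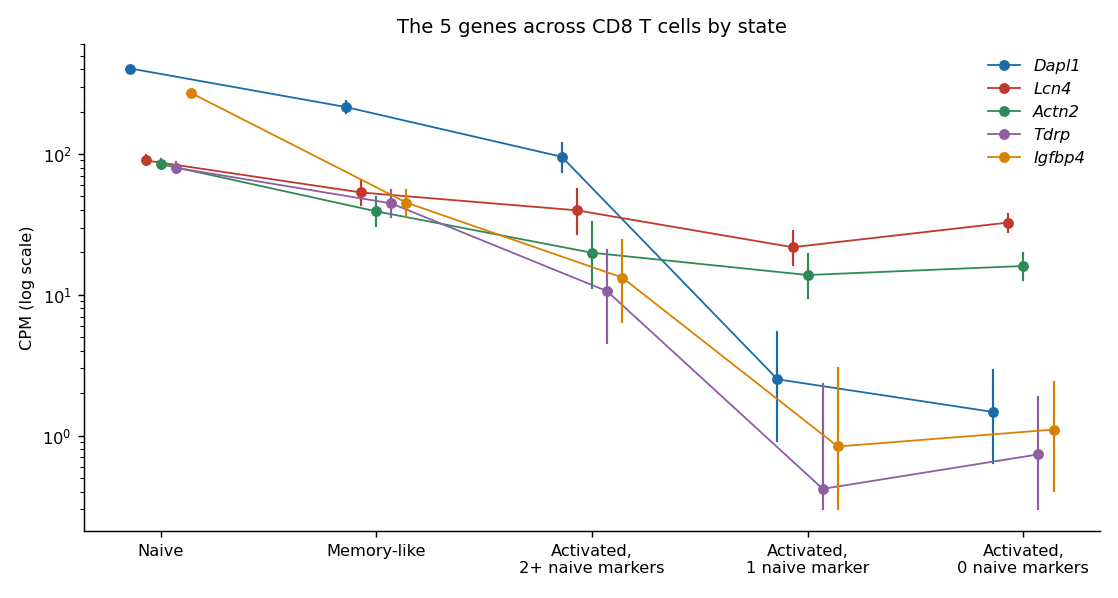
Level of the 5 genes (CPM, log scale, 95% Poisson intervals) in naive, memory-like and activated CD8 T cells, the last divided by how many of 5 naive genes a cell held. Dapl1 stands at 95.4 CPM in activated cells with at least 2 naive genes and at 1.47 CPM in those with none, whereas Lcn4 stands at 39.8 and 32.6 CPM. Most Dapl1 UMIs of activated cells came from outside populations 1, 4 and 7, which held most of these cells.

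Other genes of rest were also unequal between naive and activated CD8 T cells. Of the 12 genes of naive state and quiescence, 7 were higher in naive than in activated CD8 T cells (Klf2, Il7r, Satb1, Bach2, Foxp1, Tespa1 and Rflnb), 1 was lower (Btg2, 195 and 393 CPM) and 4 were neither (median log2 ratio 1.51, against -0.12 over all genes). Rflnb, counted under its older symbol Fam101b, had a ratio of 55.5, and Klf2 one of 22.2. Actn1 had 188 CPM in naive and 33.0 CPM in activated CD8 T cells (ratio 5.69, 5.00 to 6.50), and Actn4 had 81.2 and 109 CPM. Dap, the relative of Dapl1, was lower in naive cells, at 57.4 and 116 CPM, and close between the naive classes (57.4 CPM in CD8 and 56.9 CPM in CD4, ratio 1.01, 0.850 to 1.20). Igf1r had 12.8 and 1.87 CPM, and Igfbp7 3 UMIs in naive and 452 UMIs in activated CD8 T cells. Of the CD8 lineage list, Itgae, Ccr9 and Cd7 were higher in naive CD8 T cells and Ctsw, Cst7, Klrd1 and Ly6c2 lower (median -0.95). Of the CD4 lineage list, 3 were higher and 2 lower (median 0.59). Over all genes, 9.34% were higher and 16.3% lower in naive than in activated CD8 T cells. The lists were written with earlier results of these data known.

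Memory-like CD8 T cells had lower levels of all 5 genes than naive CD8 T cells under the second gate, and an order that turned with the gate for Dapl1, Lcn4 and Igfbp4. The ratios of naive over memory-like CD8 T cells were 6.02 for Igfbp4 (4.83 to 7.60), 2.17 for Actn2 (1.69 to 2.81), 1.88 for Dapl1 (1.69 to 2.09), 1.79 for Tdrp (1.42 to 2.29) and 1.69 for Lcn4 (1.36 to 2.12). Igfbp4 and Actn2 passed 2-fold, as did 1.74% of 8511 genes, and none of the 5 was lower by 2-fold, as 2.37% of genes were. Igfbp4 had 253, 269, 209, 294, 290 and 288 CPM in naive cells of populations 2, 3, 5, 6, 8 and 9, and 36.9, 42.1, 4.65, 25.6, 49.2 and 96.4 CPM in memory-like cells, which lay lower in all 6. Dapl1 ratios ran from 1.07 (0.843 to 1.37) in population 8 to 3.66 in population 5. The Lcn4 ratio was 0.953 in population 3 and the Tdrp ratio 0.989 in population 5, and these ratios reached 2.84 and 5.57 elsewhere. Actn2 ratios ran from 1.20 to 4.99. Memory-like cells were deeper (median 6330 UMIs, against 4572), and among cells of 4000 to 5000 UMIs the Lcn4 ratio was 1.14 (0.682 to 2.04) and the Tdrp ratio 1.45 (0.823 to 2.77). The strict memory-like gate took in Nkg7-bearing cells, and with it the Dapl1 ratio was 0.684 (0.577 to 0.805) and the Igfbp4 ratio 0.776 (0.621 to 0.958), directions opposite to those of the second gate. The strict Lcn4 ratio was 0.802 (0.566 to 1.11), that of Actn2 1.18 (0.835 to 1.62) and that of Tdrp 1.29 (0.932 to 1.75), all with intervals that include 1. None of the 5 was 2-fold higher there, as 0.975% of genes were.

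Among CD4 T cells, naive cells held 3.84 times the Dapl1 (3.20 to 4.62), 2.46 times the Tdrp (1.74 to 3.57), 3.06 times the Actn2 (1.64 to 6.22) and 4.21 times the Igfbp4 (3.76 to 4.73) of activated cells. With the stricter gate these were 2.74, 2.19, 3.29 and 2.86. Against Treg cells the ratio was 62.3 for Dapl1 (31.5 to 145) and 13.4 for Tdrp (6.35 to 33.7), 6.62 for Igfbp4 (5.73 to 7.67) and 1.45 for Actn2 (0.898 to 2.42). With the stricter gate these were 65.3, 13.6, 7.10 and 1.67, the last with an interval of 1.03 to 2.80. Igfbp4 in Treg cells was uneven, at 133, 187, 42.5, 171, 80.1 and 198 CPM in populations 2, 3, 5, 6, 8 and 9. It was at 0 in Treg cells of populations 1 and 4, of 42 and 32 cells, although Actn2 was counted in both, at 4.56 and 21.7 CPM. Activated CD4 T cells varied in Igfbp4 too, at 149, 269, 12.7, 55.8, 515, 42.2 and 288 CPM in populations 2, 3, 4, 5, 6, 8 and 9.

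Counted over all cells of a population, Dapl1 was low where few naive T cells were gated. Populations 1, 4 and 7 had 3.84, 1.49 and 1.56 CPM of Dapl1, and the other 6 had 80.2 to 229 CPM. Lcn4 stood at 14.8 CPM in population 1 (12.9 to 16.8), an interval that overlaps those of populations 5 (12.1 CPM) and 8 (14.1 CPM), and at 1.53 CPM in population 7. In such sums, fewer cells of a type and less RNA per cell cannot be told apart.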

How the data were processed

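Gene and hashtag UMIs of 1 pool of live CD45+ mouse cells were read from the deposited matrix of raw counts, which per the file headers is the output of Cell Ranger 8.0.1 as run by the authors, on the mm10-1.2.0 reference, per the design text. The 5 GEO samples are libraries of this pool (4 gene expression, 1 hashtag), so none is a biological replicate. Cells were kept with at least 500 UMIs and 200 genes and at most 20% mitochondrial UMIs, the limits the study states, which left out 93 of 21624 barcodes; Scrublet then called 184 doublets (0.855%). A hashtag was called where its antibody count was at least 3 times the next, and the multiplexing rows gave the same call in 21341 of 21347 cells. The sources used here do not say how intronic reads were handled. No column of per-sample values was left unused.

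Classes were gated on fixed markers, 1 of which is not reported here, and the second gate was added after the first was seen. A planned gate for gamma-delta T cells was not analysed here. UMIs were summed by class and by population, given as CPM, and compared as ratios with exact conditional intervals among genes with at least 50 UMIs, with a ratio of 2 as the limit. That step was tested on simulated data. Clusters came from scanpy 1.11.5 and leidenalg 0.10.2, without the 5 genes. Like genes were ranked by Pearson r of log2(CPM + 5) over 11 classes, the first 5 for each gene. The genes named on each side of the naive contrast are the first 10 by the interval bound nearest 1. Members and lists were chosen with earlier results of these data known. Promoters are from RefSeq (GRCm38.p6), with 4 of 5 genes matched.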

Additional observations from a re-analysis of the deposited data

How the results depend on the processing

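No paired analysis was possible because the 5 deposited samples are libraries of 1 pool and share no replicate numbers across groups; ratios within each hashtag population are given with the results. Of 555 alternative values, 512 were labelled the same within the set limits, 41 moved and 2 reversed. The causes were not tested. A ratio could cross 1 without being labelled reversed. With a population left out, the strict Dapl1 ratio of naive CD8 over naive CD4 T cells ran from 0.879 to 1.07. The Lcn4 ratio given below, 0.802 and 1.69, was another such case. Both reversals came from the gate, for naive over memory-like CD8 T cells: Dapl1 was 0.684 under the strict gate and 1.88 under the broad one, which was added after seeing the data, and Igfbp4 was 0.776 and 6.02. The broad gate also moved Lcn4 from 0.802 to 1.69, Actn2 from 1.18 to 2.17 and Tdrp from 1.29 to 1.79 in that comparison. Among cells of 4000 to 5000 UMIs, also added later, the strict values of Dapl1 and Igfbp4 there were 0.809 and 0.557.

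For naive CD8 over naive CD4 T cells, Dapl1 was 0.989 under the strict gate, 1.92 with clusters, 1.62 under the broad gate and 1.29 at 4000 to 5000 UMIs. Igfbp4 was 0.214, against 0.400 with clusters and 0.402 under the broad gate, and within the broad gate 0.353 at 4000 to 5000 UMIs. Leaving out population 3 took the strict Tdrp ratio to 1.42 (0.902 to 2.17), and leaving out each population put the broad Lcn4 ratio between 20.6 and 41.7. Genes called higher numbered 109 under the strict gate, 71 to 109 with a population left out (71 without population 9), 188 with at least 20 UMIs, 21 with a ratio of 3 or more, and 174 under the broad gate. The broad count became 267 with at least 20 UMIs and 76 with a ratio of 3 or more.

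For naive over activated CD8 T cells, strict Dapl1 was 25.8, against 90.0 with clusters and 40.3 under the broad gate. With a population left out, the strict ratios ran from 15.9 to 34.7 for Dapl1, from 1.69 to 3.54 for Lcn4 (under 2 without population 2 or 7) and from 3.95 to 6.76 for Actn2, and the broad ones from 24.9 to 59.9, from 2.68 to 4.76 and from 4.78 to 8.19. Without the myeloid limit Igfbp4 was 28.3 under the strict gate (74.0 with it) and 49.0 under the broad one. For naive over memory-like cells, broad Dapl1 ran from 1.77 to 2.12 and Igfbp4 from 5.41 to 8.46 with a population left out, and Lcn4 was 1.14 at 4000 to 5000 UMIs. Shares of naive CD8 T cells with a UMI were 49.1, 28.2, 28.7, 28.5 and 47.5% unthinned for Dapl1, Lcn4, Actn2, Tdrp and Igfbp4, against 32.0, 11.7, 11.7, 10.9 and 26.1% thinned. Equal weighting of populations gave no value against activated CD8 T cells, since no population held 20 cells of both. Precision is set by UMIs: Lcn4 had 12 in naive CD4 T cells and Tdrp 13 in activated CD8 T cells. Free RNA was not modelled.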
